A study of Mus musculus with 8 samples.

Results

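The laminin chains Lama1, Lama4, Lama5, Lamb1, Lamb2 and Lamc1, the nidogens Nid1 and Nid2, the heparan sulfate proteoglycan Hspg2 and the matrix glycoprotein Sparc are 10 genes of the basement membrane. They were taken by symbol from a table of 41709 gene symbols. The set was chosen by a measured value, the level of Lamc1, which was higher in every mutant embryo than in any wild type, so the difference between genotypes is described for these genes without a test. The 8 samples were whole mouse embryos at embryonic day 9.5, 4 homozygous for Smo K399A, an amino acid substitution in the Hedgehog signal transducer Smoothened, and 4 with wild-type Smo (WT). They came from several litters of heterozygous parents, each sample was 1 embryo, and the labels do not tie embryos to litters. Transcript levels are TPM, that is reads divided by gene length and scaled to the same total in each library, with 59968541 to 61447694 recovered reads behind a library. The comparison asked how transcript levels differed when Smoothened carried the substitution.

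Basement membranes are thin sheets of matrix under epithelia and endothelia and around muscle. Laminins, each built of an alpha, a beta and a gamma chain, polymerise at the cell surface through integrins and dystroglycan, nidogens and perlecan (the product of Hspg2) link them to a network of collagen IV, and SPARC binds collagen. In the mouse embryo these sheets separate tissue layers and enclose the neural tube, somites and vessels, and the parietal endoderm outside the embryo makes a very thick one.

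Markers of the whole embryo were present as labelled. At least 1 TPM was reached in every embryo by 20 of 20 endothelial, 15 of 15 mesenchyme, 8 of 8 primitive red cell, 14 of 16 heart muscle and 11 of 12 neural tube markers. Markers of tissues outside the embryo proper differed between libraries. The 18 markers of yolk sac endoderm summed to 1398, 857.3, 250.2 and 169.0 TPM in mutants 1 to 4, against 43.8, 66.7, 284.8 and 45.5 TPM in WT 1 to 4. Fga was at 0 in WT 1 and at 0.05, 2.84 and 0.03 TPM in WT 2 to 4. The mean log2 level, that is the mean of log2(TPM + 1), was higher in mutants for 18 of 18. The 10 trophoblast and decidua markers summed to 525.4 to 926.4 TPM in mutants and 416.3 to 548.6 TPM in WT. Of these, Tpbpa was at 0 in all 4 WT and under 1 TPM in every mutant, at 0.05, 0.41, 0.07 and 0.02 TPM in mutants 1 to 4. Most of each of these sums was Peg10, at 413.5 to 544 TPM in mutants and 355.6 to 443.6 TPM in WT. The highest sum, in mutant 2, also held Prl8a2 at 291.3 TPM. A list of 11 small nucleolar RNA hosts and nuclear RNAs summed to 648.4, 789.0, 352.3 and 337.4 TPM in mutants 1 to 4, against 690.9 to 833.7 TPM in WT, with a lower mean log2 level in mutants for 9 of 9 tested, so that mutants 3 and 4 stood apart. The part of these differences in the values below was not tested.

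All 10 genes passed the filter of at least 1 TPM in at least 4 embryos, which 13596 genes did. Of the 10, 9 had a higher mean log2 level in mutants than in WT and 1, Lamb2, a lower mean log2 level, with a median log2 fold change (on the scale of TPM + 1) of 0.21 against -0.04 over all tested genes. The values of the genotypes did not overlap for 3 of them, Lamc1, Nid2 and Hspg2, each higher in mutants, and for none in the lower direction. Over all 13596 tested genes, 5124 had a higher mean log2 level in mutants. The genotypes did not overlap for 7.46% of them, 3.63% higher and 3.82% lower in mutants. Since the choice of the genes used this contrast, these counts are a description. Without mutants 1 and 2, 6 of the 10 were higher in mutants, and without mutants 3 and 4 all 10 were. The direction over all tested genes moved with these pairs too. Without mutants 1 and 2, 735 of 5296 genes at an unadjusted limma p under 0.05 were higher in mutants. Without mutants 3 and 4, 1350 of 1710 were. The part of this shift in the 10 genes was not tested. In whole embryos, more cells that make a transcript and more of it per cell cannot be told apart.

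**Figure D1:**
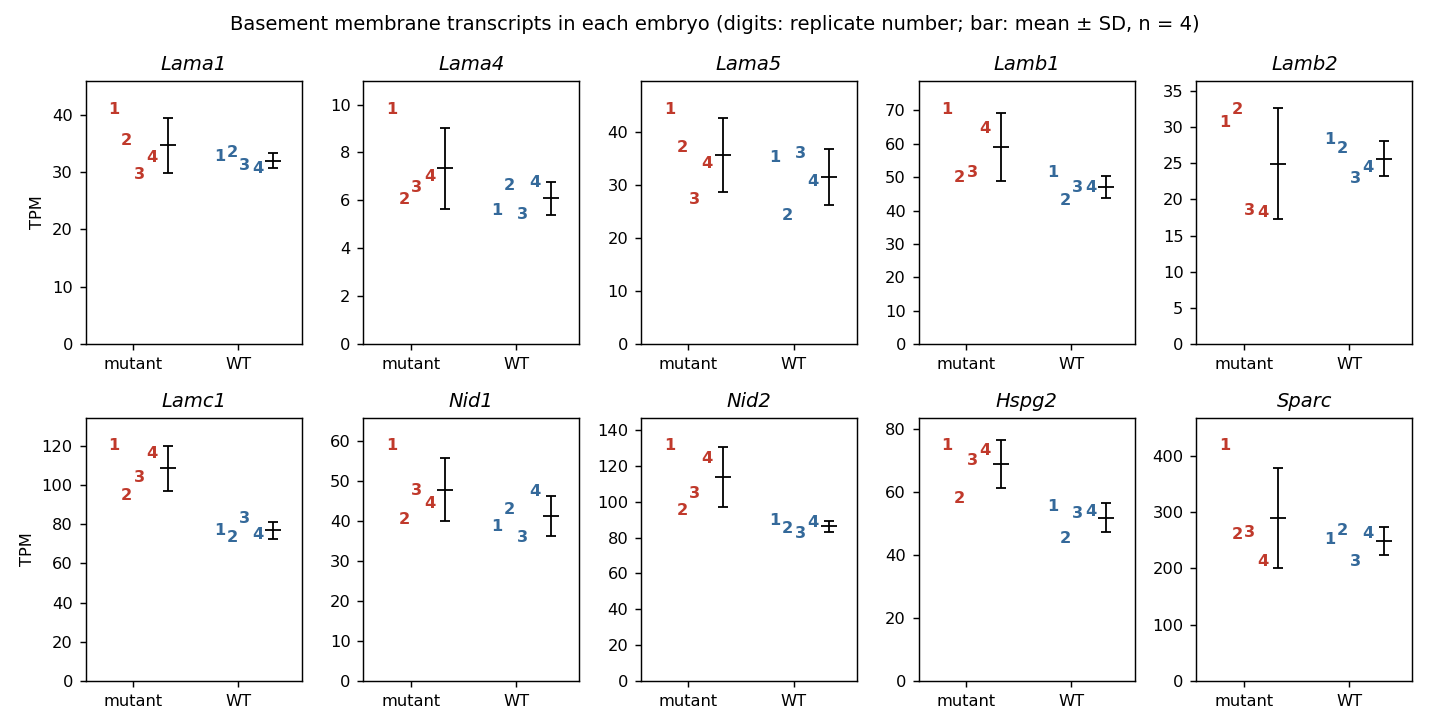
TPM of the 10 genes in each embryo, mutants left of WT, with the replicate number as the symbol and a bar for the mean ± SD (n = 4). For Lamc1, Nid2 and Hspg2 all mutants lie above all WT embryos, mutant 1 is the highest embryo for every gene except Lamb2, and for Lamb2 mutants 3 and 4 lie below all WT embryos.

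Lamc1 (chromosome 1, 153218922 to 153332786, minus strand, GRCm38) encodes the gamma chain found in most laminins. It was at 119.9, 94.7, 103.7 and 115.8 TPM in mutants 1 to 4, against 76.6, 73.2, 83.0 and 74.6 TPM in WT 1 to 4. Every mutant was above every WT embryo, and the lowest mutant (94.7 TPM) exceeded the highest WT embryo (83.0 TPM). The means were 108.5 ± 11.5 TPM in mutants and 76.9 ± 4.35 TPM in WT (SD, n = 4 each), a ratio of 1.41 and a log2 fold change of 0.49 ± 0.08 (SE). Over 15 alternative settings this log2 fold change lay between 0.44 and 0.55. These are the values by which the set was picked. Between 11248 and 18533 reads lay behind each Lamc1 value.

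The alpha chains decide which receptors a laminin binds. Lama1 (chromosome 17, 67697259 to 67822647), the alpha chain of early embryonic laminin, was at 40.9, 35.5, 29.6 and 32.5 TPM in mutants 1 to 4, against 32.7, 33.3, 31.2 and 30.6 TPM in WT 1 to 4. Mutants 1 and 2 were above all WT embryos and mutant 3 was below them, so the genotypes overlapped, at 34.6 ± 4.85 TPM in mutants and 32.0 ± 1.28 TPM in WT. The log2 fold change of Lama1, 0.10 ± 0.09, became 0.25 without mutants 3 and 4 and -0.04 without mutants 1 and 2. Lama5 (chromosome 2, 180176373 to 180225859), the broad alpha chain of later epithelial and vascular membranes, was at 44.3, 37.1, 27.4 and 34.03 TPM in mutants, against 35.2, 24.3, 35.9 and 30.7 TPM in WT. Its lowest value was in WT 2 and its highest in mutant 1, with mutant 3 the second lowest of the 8 embryos, and its log2 fold change, 0.17 ± 0.16 over all embryos, turned to -0.03 once mutants 1 and 2 were left out. Lama4 (chromosome 10, 38965515 to 39110188), the alpha chain of vessels and mesenchyme, was the lowest of the 10 genes, at 9.80, 6.04, 6.54 and 6.996 TPM in mutants and 5.57, 6.61, 5.39 and 6.75 TPM in WT. Mutant 1 stood well clear of the WT range, mutant 4 was just above it, and the other mutants were inside it (log2 fold change 0.22 ± 0.14). The 20 endothelial markers summed to 439.6 to 567.6 TPM in mutants and 387.5 to 453.9 TPM in WT, were highest in mutant 1 too, and had a higher mean log2 level in mutants for 18 of the 20. In mutants 1 to 4 these sums were 567.6, 439.6, 453.9 and 541.5 TPM, which is also the order of the mutants for Lamc1, Nid2, Lamb1 and Hspg2. This order was not particular to endothelial markers. The parietal endoderm markers shared it, with sums of 1454, 895.7, 933.9 and 1122 TPM in mutants 1 to 4. The part of endothelial content in the values of Lama4 or of the other genes was not tested.

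Both beta chains were present, and their levels parted within the mutants. Lamb1 (chromosome 12, 31265234 to 31329644), the main embryonic beta chain, was at 70.4, 49.8, 51.4 and 64.6 TPM in mutants 1 to 4, against 51.4, 43.0, 47.1 and 46.8 TPM in WT 1 to 4. Mutants 1 and 4 were well above the WT range, mutant 3 was level with its top (WT 1) and mutant 2 just below it. The means were 59.0 ± 10.1 TPM in mutants and 47.1 ± 3.42 TPM in WT, a log2 fold change of 0.31 ± 0.11. Lamb2 (chromosome 9, 108479736 to 108490530), a beta chain known from muscle, kidney and vessel walls, was at 30.6, 32.5, 18.4 and 18.2 TPM in mutants 1 to 4, against 28.3, 27.1, 22.9 and 24.4 TPM in WT 1 to 4. Mutants 1 and 2 were above all WT embryos and mutants 3 and 4 below all of them. The log2 fold change of Lamb2, -0.08 ± 0.19, was 0.29 without mutants 3 and 4 and -0.46 without mutants 1 and 2. Mutants 3 and 4 were also those low in small nucleolar RNA hosts, and the part of that in the Lamb2 values was not tested.

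Upstream sequence was read from RefSeq promoters (GRCm38.p6) for the 6 genes of the 10 that matched an entry, Lama5, Hspg2, Lamb2, Sparc, Lamb1 and Nid1. Shown are the 250 bases before the start that RefSeq annotates, for the 2 beta chains, which parted in mutants 3 and 4, and for Hspg2, whose genotypes did not overlap. Capitals mark the GC box, GGGCGG or its reverse complement CCGCCC. The GENCODE starts given with each gene need not be the RefSeq starts: for Hspg2, Lamb1, Lamb2 and Nid1 they lie inside these windows, and the window of Sparc lies inside its GENCODE span. All 3 sequences are on the plus strand, Hspg2 at chr4:137468553-137468802, Lamb1 at chr12:31265043-31265292 and Lamb2 at chr9:108479612-108479861.
Hspg2: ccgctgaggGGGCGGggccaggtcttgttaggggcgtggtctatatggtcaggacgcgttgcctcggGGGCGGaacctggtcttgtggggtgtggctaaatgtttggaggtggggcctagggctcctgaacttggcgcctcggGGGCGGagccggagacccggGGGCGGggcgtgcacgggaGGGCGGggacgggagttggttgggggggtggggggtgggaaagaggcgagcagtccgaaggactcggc
Lamb1: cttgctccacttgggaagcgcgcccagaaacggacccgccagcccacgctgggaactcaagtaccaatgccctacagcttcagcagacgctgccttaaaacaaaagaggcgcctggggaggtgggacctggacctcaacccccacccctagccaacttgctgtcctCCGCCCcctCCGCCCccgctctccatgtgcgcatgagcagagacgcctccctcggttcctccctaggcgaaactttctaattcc
Lamb2: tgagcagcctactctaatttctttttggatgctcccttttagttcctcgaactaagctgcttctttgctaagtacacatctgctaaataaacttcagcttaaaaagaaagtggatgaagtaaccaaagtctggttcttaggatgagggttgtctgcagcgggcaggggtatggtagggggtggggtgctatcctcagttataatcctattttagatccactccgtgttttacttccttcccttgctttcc
The GC box, searched on both strands, occurred 5 times before Hspg2, 4 times before Lama5, 2 times before Lamb1, 1 time before Nid1 and 0 times before Lamb2 and Sparc, and at least once in 32.7% of 32851 RefSeq promoters. The window before Lamb2 held 43.6% G and C, against 62.0% before Lamb1 and 70.0% before Hspg2. The windows before Lama5, Nid1 and Sparc, whose genotypes overlapped, held 72.4%, 64.4% and 54%. The median over all promoters was 52.4%. TATAA, on both strands and in 22.8% of promoters, occurred only before Lamb2 among the 6, as 2 overlapping matches in 1 place. CCAAT, on both strands and in 33.9% of promoters, occurred before Lamb1 and before Nid1, and AGATAA, on both strands and in 9.99% of promoters, in none of the 6 windows. A match describes these letters in this window only.

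Nidogens bind the laminin gamma chain. Nid2 (chromosome 14, 19751265 to 19811787) was at 131.1, 95.2, 104.6 and 124.3 TPM in mutants 1 to 4, against 89.5, 85.1, 82.3 and 88.1 TPM in WT 1 to 4. All mutants were above all WT embryos, with mutants 1 and 4 highest as for Lamc1. The means were 113.8 ± 16.7 TPM in mutants and 86.2 ± 3.22 TPM in WT, a log2 fold change of 0.38 ± 0.10 that lay between 0.31 and 0.47 over the 15 alternatives. Exons of Nid2 share 437 bases with Rtraf on the opposite strand, and the library kit named in the labels does not mark strand, so reads in that stretch could belong to either gene. Nid1 (chromosome 13, 13437551 to 13512269) was at 58.8, 40.4, 47.7 and 44.5 TPM in mutants, against 38.6, 43.0, 35.8 and 47.4 TPM in WT. Its genotypes overlapped and mutant 2 lay below the WT mean of 41.2 TPM, with a log2 fold change of 0.21 ± 0.12. Its exons share 143 bases with the antisense gene Gm48682. The 2 nidogens together summed to 161.7 ± 23.2 TPM in mutants and 127.4 ± 7.13 TPM in WT, of which Nid1 held 29.6% ± 2.27 in mutants and 32.2% ± 2.39 in WT.

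Hspg2 (chromosome 4, 137468769 to 137570630) encodes perlecan, which carries heparan sulfate chains that bind growth factors, among them Hedgehog ligands. It was at 74.6, 57.8, 69.9 and 73.1 TPM in mutants 1 to 4, against 55.4, 45.1, 53.1 and 53.7 TPM in WT 1 to 4. The genotypes did not overlap, though mutant 2 was only just above WT 1. The means were 68.8 ± 7.65 TPM in mutants and 51.8 ± 4.57 TPM in WT, a log2 fold change of 0.40 ± 0.09 that lay between 0.34 and 0.48 over the 15 alternatives. Sparc (chromosome 11, 55394500 to 55423183) was the most abundant of the 10 genes. Its levels were 417.7, 260.6, 264.4 and 212.9 TPM in mutants, against 251.9, 267.5, 213.1 and 262.8 TPM in WT. Mutant 1 was far above the other 7 embryos, mutants 2 and 3 were inside the WT range and mutant 4 was just below it. The log2 fold change of Sparc, 0.17 ± 0.18, became -0.02 when mutant 1 was left out.

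**Figure D2:**
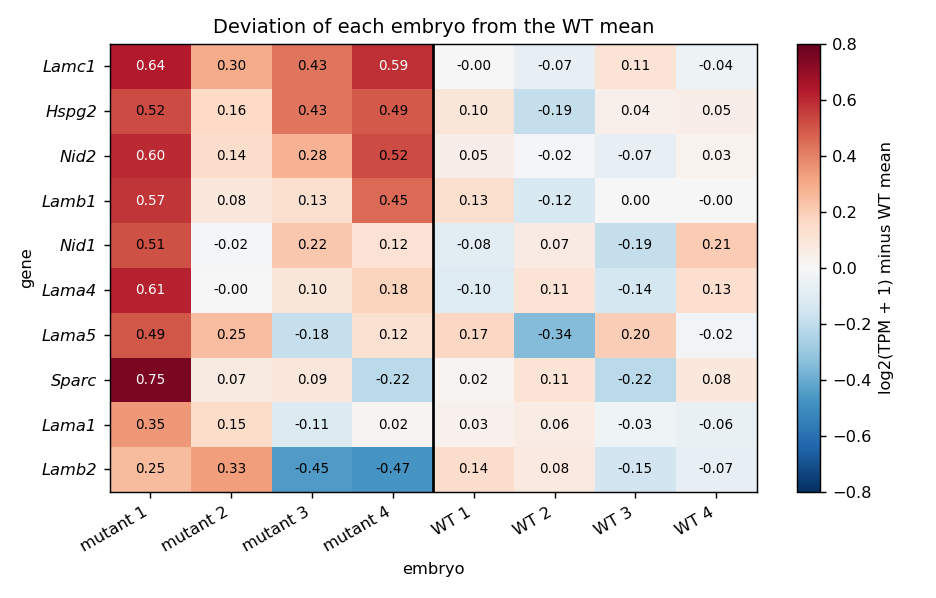
Each embryo's log2(TPM + 1) minus the WT mean of the gene, for the 10 genes (rows) and 8 embryos (columns, mutants left of WT), with the value in each cell. Lamc1, Hspg2 and Nid2 are positive in all 4 mutants, mutant 1 is positive for all 10 genes, and Lamb2 is at -0.45 and -0.47 in mutants 3 and 4.

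The order of levels was nearly the same in both genotypes. It ran Sparc, Nid2, Lamc1, Hspg2, Lamb1, Nid1 and then Lama5, Lama1, Lamb2 and Lama4 in mutants, with Lama1 before Lama5 in WT. Sparc was apart from Nid2, Lamc1 from Hspg2 and Lamb2 from Lama4 in both genotypes, and Nid1 from Lama1 in WT. The ranges of all other neighbours overlapped across embryos. Within embryos, Hspg2 was above Lamb1 in 4 of 4 mutants and 4 of 4 WT, and Nid2 was above Lamc1 in 4 of 4 mutants and 3 of 4 WT. Lama5 was above Lama1 in 3 of 4 mutants, and Lama1 above Lama5 in 1 of 4 WT. Spread was wider in mutants: the median coefficient of variation of TPM over the 10 genes was 16.7% in mutants and 9.18% in WT, beside 12.8% in mutants and 6.41% in WT over all tested genes.

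Ratios of chains within an embryo do not depend on how its library was scaled. The alpha chains (Lama1 to Lama5) summed to 78.6 ± 13.4 TPM in mutants and 70.4 ± 4.23 TPM in WT (SD, n = 4 each). The ratio of Lamc1 to the alpha sum was 1.24, 1.19, 1.61 and 1.56 in mutants 1 to 4, against 1.03, 1.13, 1.13 and 1.08 in WT 1 to 4. All mutants were above all WT embryos, with mutant 2 nearest to WT and mutants 3 and 4 highest. The choice of the set by Lamc1 bears on this ratio too, so it is given as a description. Without mutants 3 and 4 its mutant mean was 1.22, against 1.09 in WT. The ratio of Lamc1 to the beta sum overlapped, at 1.28 ± 0.16 in mutants and 1.04 ± 0.09 in WT.

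**Figure D3:**
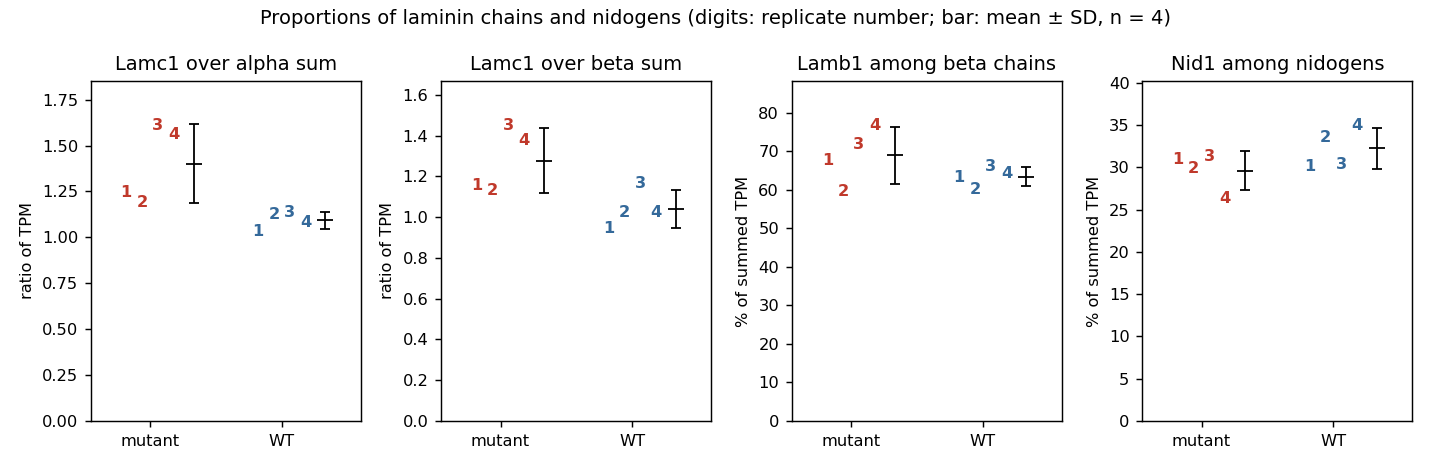
Ratios of Lamc1 TPM to the summed TPM of alpha chains and of beta chains, and shares of Lamb1 among beta chains and of Nid1 among nidogens, in each embryo (digits: replicate number; bars: mean ± SD, n = 4; mutants left of WT). The ratio of Lamc1 to the alpha sum is 1.19 to 1.61 in mutants and 1.03 to 1.13 in WT, and the other 3 quantities overlap.

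Among alpha chains the shares overlapped between genotypes. Lama1 held 44.2% ± 1.46 of the alpha sum in mutants and 45.6% ± 3.86 in WT, Lama5 held 45.3% ± 1.88 and Lama4 9.34% ± 1.21 in mutants, against 44.6% ± 5.12 and 8.70% ± 1.47 in WT. Lama2, an alpha chain of muscle, held under a percent of the sum in every embryo. Among beta chains (Lamb1, Lamb2 and Lamb3) Lamb1 held 67.7%, 59.4%, 71.9% and 76.7% in mutants 1 to 4, against 63.2%, 60.1%, 66.2% and 64.2% in WT 1 to 4. The highest Lamb1 shares were thus in mutants 3 and 4 and the lowest in mutant 2.

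How the 10 genes varied together was described after centring each gene within its genotype, which removes the difference by which they were picked. Over 8 embryos, whose points share a library and its total, Pearson's r was above 0 for 41 of 45 pairs, with a median of 0.43. Without mutant 1, it was above 0 for 22 of 45 pairs, with a median of -0.03, so the positive median rested on mutant 1. A smaller block kept its sign: Lamb1 with Nid2 had r = 0.93 (0.87 without mutant 1), Lamb1 with Lamc1 0.85 (0.76) and Lamc1 with Nid2 0.79 (0.67). Hspg2 belonged to this block, at 0.79 (0.78) with Lamb1, 0.78 (0.74) with Lamc1 and 0.74 (0.70) with Nid2. Lama4 with Nid1 had r = 0.93 (0.88) and Lama1 with Lamb2 0.82 (0.84). Lamb2 ran opposite to Lamc1, at -0.28 (-0.78), and to Hspg2, at -0.41 (-0.74). Pairs without Lamb2 also turned negative once mutant 1 was left out, among them Lamc1 with Sparc, at 0.16 (-0.90), the most negative of all. Lama5 with Nid1 was at 0.01 (-0.70).

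Across all 13595 other tested genes ranked in the same way, the 5 named genes most like Lamc1 were Foxi3 (r = 0.96), Gprc5c (0.95), Rhbdf2 (0.94), Tent5b (0.94) and Crlf2 (0.94), over 8 embryos. Without mutant 1 their r with Lamc1 lay between 0.92 and 0.95. Foxi3 encodes a transcription factor of pharyngeal ectoderm and was at 4.89, 2.79, 3.09 and 4.34 TPM in mutants 1 to 4, against 1.95, 1.72, 2.94 and 2.04 TPM in WT 1 to 4. Gprc5c, an orphan receptor, was at 63.2, 40.9, 44.1 and 55.7 TPM in mutants, against 44.7, 39.1, 47.0 and 38.3 TPM in WT. The 5 were picked for sharing the order of embryos with Lamc1, so that order is no finding. In this ranking Lamb1 was 88th, Nid2 197th and Hspg2 219th, and Lamb2 was 9549th.

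Other genes of the basement membrane, its receptors and its turnover were compared by limma, which none of 64 tested genes in 7 lists passed at an adjusted p under 0.05, as 0% of all tested genes did. An unadjusted p under 0.05 was met by 17 of the 64, beside 13.5% of all tested genes. Of the 17, 15 were higher (23.4% of the 64, against 5.55% of all tested genes) and 2 lower (3.12%, against 8% of all tested genes) in mutants. With limma voom on recovered reads, 0 partner genes passed the threshold and 18 had an unadjusted p under 0.05, 16 of them higher in mutants. Over all 13579 genes in that fit, 2123 had an unadjusted p under 0.05, 858 of them higher. Of the 64, 44 had a higher mean log2 level in mutants, with a median log2 fold change of 0.09 beside -0.04 over all tested genes. The 17 became 8 without WT 1, 11 without WT 3, 10 without WT 4 and 27 without mutants 1 and 2. In that last setting 16 of the 64 passed the threshold, 9 of them higher in mutants. Of all 13596 tested genes 3369 passed there and 5296 had an unadjusted p under 0.05, which are similar shares. The lists were written with earlier results of these data known, and no set test was made.

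**Figure D4:**
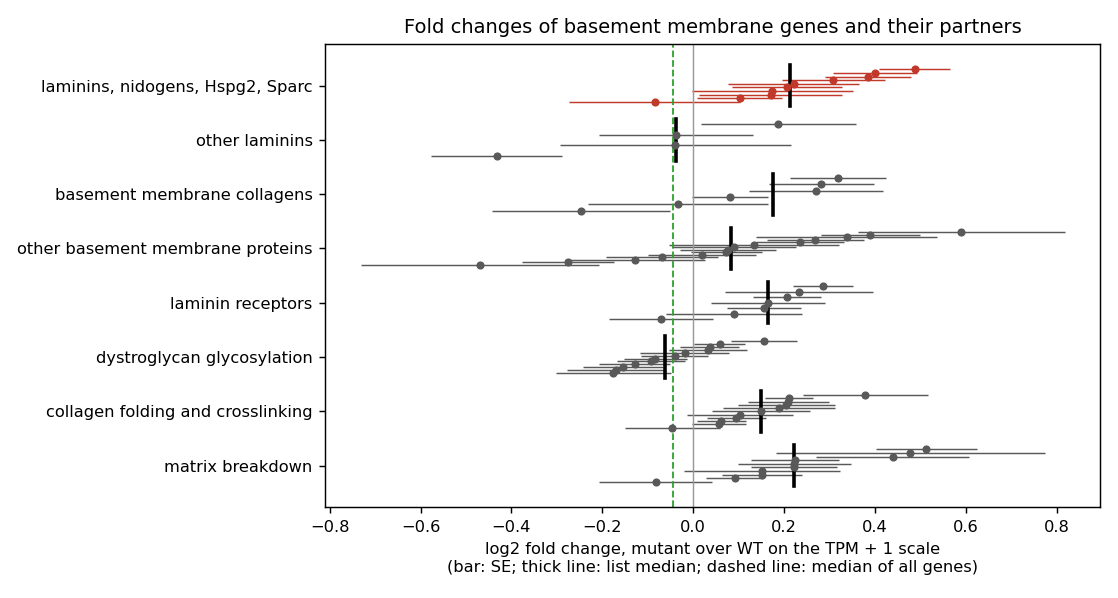
Log2 fold change, mutant over WT, on the scale of TPM + 1 (points, with SE bars) of the 10 genes and of the tested genes of 7 partner lists, with each list's median as a thick line and the median of all tested genes, -0.04, as a dashed line. List medians run from -0.06 for dystroglycan glycosylation to 0.22 for matrix breakdown, beside 0.21 for the 10 genes.

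Of 8 basement membrane collagens 6 were tested, 4 with a higher mean log2 level in mutants. Col4a1 and Col4a2, the chains of the main collagen IV network, had the smallest p. Col4a1 was at 224.9, 149.2, 156.0 and 189.2 TPM in mutants 1 to 4, against 140.2, 153.2, 141.4 and 148.5 TPM in WT 1 to 4 (log2 fold change 0.28 ± 0.12, limma adjusted p = 0.345). Col4a2 was at 153.5, 104.4, 118.3 and 135.8 TPM in mutants, against 100.1, 107.8, 96.8 and 101.0 TPM in WT (0.32 ± 0.11, limma adjusted p = 0.304). In both, mutants 1, 3 and 4 were above all WT embryos and mutant 2 was inside the WT range. Among the other laminins and netrin 4, 4 of 6 were tested and 3 had a lower mean log2 level. Ntn4, which encodes a netrin that binds laminin gamma chains, was at 1.63, 1.91, 1.94 and 1.35 TPM in mutants, against 2.18, 3.41, 2.14 and 2.98 TPM in WT, with no overlap (-0.43 ± 0.14, limma adjusted p = 0.306).

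Of 16 other basement membrane proteins 14 were tested and 10 had a higher mean log2 level. Fras1, a protein that anchors embryonic epidermis, had the smallest p, at 19.2, 13.8, 15.5 and 14.5 TPM in mutants 1 to 4, against 11.7, 10.55, 12.2 and 12.4 TPM in WT 1 to 4. Its genotypes did not overlap (log2 fold change 0.39 ± 0.11, limma adjusted p = 0.281). Smoc2 and Smoc1, which belong to the SPARC family, had means on opposite sides of WT: Smoc2 was at 14.9 ± 5.88 TPM in mutants and 9.11 ± 1.27 TPM in WT, and Smoc1 at 46.9 ± 6.61 TPM in mutants and 56.7 ± 4.86 TPM in WT. Neither passed (limma adjusted p = 0.330 and 0.322). Smoc2 was at 22.85, 15.6, 11.55 and 9.54 TPM in mutants 1 to 4, with mutant 4 inside the WT range. Its log2 fold change, 0.59, became 0.20 without mutants 1 and 2, and that of Smoc1, -0.28, became -0.15. Frem2, a partner of Fras1, was at 36.1 ± 5.57 TPM in mutants and 29.7 ± 2.62 TPM in WT (limma adjusted p = 0.340).

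Of 9 laminin receptors 7 were tested and 6 had a higher mean log2 level. Dag1, which encodes dystroglycan, was at 179.3, 145.1, 160.2 and 167.6 TPM in mutants 1 to 4, against 127.6, 135.8, 139.5 and 130.5 TPM in WT 1 to 4. All mutants were above all WT embryos (log2 fold change 0.28 ± 0.07, limma adjusted p = 0.281). Itga6, a laminin-binding integrin alpha chain, was at 46.2 ± 2.79 TPM in mutants and 39.9 ± 3.49 TPM in WT (limma adjusted p = 0.317). Itgb1, the beta chain shared by most laminin-binding integrins, was at 259.0 ± 34.3 TPM in mutants and 231.0 ± 5.63 TPM in WT (limma adjusted p = 0.412). The log2 fold change of Itgb1, 0.16, became 0.07 without mutant 1. The 12 enzymes that build the laminin-binding sugar of dystroglycan had a median log2 fold change of -0.06, and 8 had a lower mean log2 level.

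Of 11 genes of collagen folding and crosslinking 10 had a higher mean log2 level. P4ha1, a subunit of collagen prolyl hydroxylase, was at 72.8, 64.0, 71.5 and 66.5 TPM in mutants 1 to 4, against 57.9, 60.2, 58.5 and 59.9 TPM in WT 1 to 4, with no overlap (log2 fold change 0.21 ± 0.05, limma adjusted p = 0.281). Its relative P4ha2 did not overlap either, at 20.3 ± 4.56 TPM in mutants and 15.2 ± 1.48 TPM in WT (limma adjusted p = 0.317). Of 10 genes of matrix breakdown 9 had a higher mean log2 level. Adamts1, a secreted protease, was at 36.8, 28.9, 27.3 and 25.7 TPM in mutants, against 18.7, 19.9, 20.1 and 22.7 TPM in WT. Its lowest mutant was above its highest WT embryo (log2 fold change 0.51 ± 0.11, limma adjusted p = 0.281). Adamts9, of the same family, was at 15.8 ± 5.06 TPM in mutants and 11.1 ± 0.21 TPM in WT, with no overlap (limma adjusted p = 0.328). Timp3, an inhibitor of such proteases that sits in the matrix, was at 17.6 ± 1.35 TPM in mutants and 14.9 ± 1.56 TPM in WT (limma adjusted p = 0.352).

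Marker lists of other tissues also differed between the same embryos. The heart muscle markers summed to 4431, 2163, 2771 and 2473 TPM in mutants 1 to 4, against 1453 to 2119 TPM in WT, and the parietal endoderm markers to 1454, 895.7, 933.9 and 1122 TPM in mutants, against 758.5 to 938.6 TPM in WT. The mean log2 level was higher in mutants for 14 of 16 heart and 7 of 10 parietal endoderm markers, and lower for 3 of the latter. Most of each parietal endoderm sum was Krt8, Krt18 and Podxl, which are not particular to parietal endoderm. The heart muscle and parietal endoderm sums, like all of the 10 genes except Lamb2, were highest in mutant 1. The neural tube markers summed to 399.5, 758.9, 569.3 and 514.7 TPM in mutants, against 646.7 to 972.1 TPM in WT, were lowest in mutant 1, and had a lower mean log2 level in mutants for 12 of 12 markers. The part of tissue content in the levels of the 10 genes was not tested.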

How the data were processed

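The authors deposited a table of TPM per gene symbol for 8 whole embryos, made on build GRCm38 (mm10) per the submitters' processing notes. Libraries were prepared from total RNA with the TruSeq RNA Sample Prep v2 kit per the labels' protocols. Aligner, counter and annotation release were not given in the sources used here. All 8 columns were matched to samples by name and 0 were left over. Read numbers were recovered from the steps between TPM values with merged exon lengths of GENCODE M21: of 23993 symbols with a value, 22464 (93.63%) were whole within 0.02 reads in every library, 1504 (6.27%) were whole with another length, among them Hspg2, and 25 were not recovered. Positions are from GENCODE M21.

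Genes with at least 1 TPM in at least 4 embryos (13596) were compared on log2(TPM + 1), mutant over WT, with limma (version 3.58.1, R version 4.3.3) and a trend, two-sided, with Benjamini-Hochberg adjustment over all genes and a threshold of 0.05. Fold changes on this scale are nearer 0 than ratios of TPM. The fit was tested on simulated data. The 10 genes, the lists and the tests were chosen with earlier results of these data known, and no p is given for the 10 genes. Partner genes named are up to 4 with the smallest p of each list, with Col4a1 and Col4a2, tissue markers named are up to 3 with the highest mean of each list, and likeness to Lamc1 leaves out unnamed loci. Fga, Tpbpa and Rtraf, and the promoters shown, were named after their values were seen. Some genes that the rule names are not reported here. Alternatives were a pseudocount of 0.1, no filter, median-ratio scaling, the replicate number as a block, leaving out each embryo or a pair of mutants, and, chosen after seeing the data, limma voom 3.58.1 on recovered reads and the counts of the 10 genes without single embryos or pairs.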

Additional observations from a re-analysis of the deposited data

How the results depend on the processing

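Over 15 alternatives, the log2 fold changes of Lamb1, Nid1 and Lama4 kept a positive sign. Those of Lamc1, Nid2 and Hspg2, whose genotypes do not overlap, could not turn by leaving out embryos. That of Lama1 turned sign in 1, Lama5 in 1, Sparc in 2 and Lamb2 in 3, all of them settings that leave out mutants. Across all genes limma called 0, and 0 to 1 without single embryos, 3 without mutants 3 and 4 and 3369 without mutants 1 and 2, a setting that compares 2 libraries with 4. An unadjusted p under 0.05 was met by 1842, of which 754 were higher in mutants. This count was 1158 to 3094 without single embryos and 5296 without mutants 1 and 2, and with median-ratio scaling it was 2159, of which 1220 were higher. Of 64 partner genes, 17 at an unadjusted p under 0.05 became 8 to 20 without single embryos and 27 without mutants 1 and 2. In the latter setting 16 of the 64 passed the threshold, with both directions together a share similar to 3369 of all 13596 genes. Of these 16, 9 were higher in mutants, among them Col4a2, Fras1, Dag1, P4ha1, Adamts1 and Adamts9. Of the 3369, 282 were higher in mutants. The cause was not tested. The labels do not say whether embryos of the same replicate number belong together. Deviations of same-numbered embryos correlated at -0.06, 0.04, -0.19 and -0.25. Other differences between embryos enter these values too, so they cannot tell whether a litter or batch was shared. With the replicate block 0 genes passed, 1900 had an unadjusted p under 0.05 and 12 partner genes did. Lama4 rested on the fewest reads, 1226 to 2211 per embryo. Intervals of counting error were not computed for TPM.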

Other observations

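Podxl, which encodes podocalyxin, a sialomucin of epithelial and vascular surfaces, was at 301.4, 217.8, 197.4 and 249.2 TPM in mutants 1 to 4, against 158.9, 148.7, 171.6 and 140.9 TPM in WT 1 to 4. All mutants were above all WT embryos (log2 fold change 0.62 ± 0.12 SE, limma adjusted p = 0.263, n = 4 each). The keratins of simple epithelia in the same list, which parietal endoderm shares with epithelia of the embryo, overlapped: Krt8 was at 360.8 ± 112 TPM in mutants and 276.6 ± 41.0 TPM in WT (SD, n = 4 each), and Krt18 at 272.8 ± 70.9 TPM in mutants and 207.2 ± 28.5 TPM in WT. Mutant 1 was the highest embryo for all 3.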
